A study of Homo sapiens with 12 samples.

Results

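A set of 10 host genes was followed through the depletion of the SAFB family of RNA-binding proteins. Their products are reported to restrict the human LINE-1 (L1) retrotransposon, and their effect on L1 in these cells was not tested. The genes are *SAMHD1*, *MOV10*, *ZC3HAV1*, *UPF1*, *ADAR*, *APOBEC3B*, *APOBEC3C*, *RNASEH2A*, *RNASEH2B* and *RNASEH2C*, chosen by name as reported L1 restriction factors. All 10 were present among the 58780 gene identifiers counted, and all 10 were among the 26688 genes tested. The libraries are strand-specific sequencing of poly(A)-selected RNA from HEK293 cells, an established human embryonic kidney line, carried here as a Flp-In T-REx derivative. In the triple KD group the cells received siRNAs against *SAFB* (encoding SAFB1), *SAFB2* and *SLTM* together. In the SAFB1 KD and SLTM KD groups they received the siRNA against that single gene, with negative control siRNA making up the same total, and the control group received negative control siRNA alone. Each of the 4 groups had 3 libraries. SAFB2 KD libraries were not analysed here, so the effect of SAFB2 depletion alone is not separated from that of the triple KD. Nothing in the labels states that the 3 libraries of a group came from separate cultures. The study's methods give a number of cells per replicate for the transfections, without stating whether the replicates were independent. The p-values measure the spread between these libraries, which may be technical.

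L1 moves within the human genome with the help of proteins that it encodes. It copies itself through an RNA intermediate that is exported, packaged with its own proteins and brought back to the nucleus. There the RNA is reverse transcribed into DNA at the insertion site, and cells carry defences at several of these steps. SAMHD1 hydrolyses deoxynucleotides and limits reverse transcription, and MOV10 is an RNA helicase that binds L1 ribonucleoprotein particles. The ZC3HAV1 product, ZAP, binds CpG-rich RNA and promotes its decay, UPF1 is the core helicase of nonsense-mediated decay, ADAR converts adenosine to inosine in double-stranded RNA, the APOBEC3 proteins are cytidine deaminases, and RNase H2, made of subunits A, B and C, cuts the RNA strand of RNA-DNA hybrids. SAFB1, SAFB2 and SLTM are nuclear proteins that bind purine-rich RNA, which includes the sense strand of L1. The comparison asks whether the mRNAs of the other reported L1 restriction factors differ once these proteins are depleted.

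The libraries held between 56856228 and 75533510 counted reads. The targeted genes fell in the libraries labelled for them. In the triple KD, *SAFB* averaged 38.2 CPM (counts per 1e6 counted reads, with library sizes scaled by TMM, the trimmed mean of M-values), *SAFB2* 29.1 CPM and *SLTM* 25.0 CPM, against 232, 126 and 116 CPM in control libraries. *SAFB* was at 19.5% of its control level in the SAFB1 KD and *SLTM* at 17.7% of its control level in the SLTM KD. In the SAFB1 KD, *SAFB2* was at 166% and *SLTM* at 120% of the control level. The HEK293 markers *NEFL* and *LIN28B* averaged 186 and 162 CPM over all libraries, and *PAX2*, *L1CAM* and *NEFM* 4.64, 3.30 and 1.54 CPM. The sum of the 5 was therefore made up mostly by *NEFL* and *LIN28B*. The summed level of 5 HEK293 markers lay between 288 and 295 CPM in the triple KD, between 409 and 421 CPM in the SAFB1 KD, between 339 and 355 CPM in the SLTM KD and between 372 and 382 CPM in control libraries. Against the control, 4 of the 5 passed as lower in the triple KD, 1 as higher in the SAFB1 KD and 2 as lower in the SLTM KD. Of all 26688 genes tested, 5591 passed as lower in the triple KD, 1345 as higher in the SAFB1 KD and 1509 as lower in the SLTM KD. Mitochondrial genes took 4.11 to 4.51% of the counts in the triple KD, 3.40 to 3.68% in the SAFB1 KD, 3.89 to 4.25% in the SLTM KD and 3.31 to 3.61% in control libraries, so that the triple KD and SLTM KD libraries lay above the control without overlap. What part the marker levels and the mitochondrial share have in the results that follow, including the *SAMHD1* and *MOV10* calls in the single knockdowns, was not tested. The summed level of 4 leukocyte markers lay between 0.520 and 0.735 CPM in the triple KD and between 0.543 and 0.808 CPM in control libraries. *CD14*, at 21 to 54 counts a library, made up most of it, and *PTPRC*, the pan-leukocyte antigen, had no more than 5 counts in any library. Of 4 fibroblast markers, *COL1A1* averaged 12.4, *COL3A1* 1.96, *LUM* 0.0411 and *DCN* 0.00611 CPM over all libraries. Of 4 squamous epithelium markers, *SFN* averaged 4.14, *TP63* 0.0585, *KRT5* 0.0145 and *KRT14* 0.00807 CPM. Whether any of these reads came from other cells was not tested.

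In the triple KD, 7 of the 10 factors differed from the control at an adjusted p under 0.05. *APOBEC3B*, *SAMHD1*, *MOV10* and *UPF1* were higher, and *RNASEH2C*, *APOBEC3C* and *RNASEH2B* were lower. *ZC3HAV1*, *ADAR* and *RNASEH2A* did not pass the test. All of the changes other than that of *APOBEC3B* were under 1.2-fold in either direction. Of all genes tested, 40.3% passed the same threshold, 19.4% higher and 20.9% lower, and the share was 65.3% when only genes averaging 1 CPM or more were counted. Of the 9 factors above that level, 6 passed, so their share lay near that of all genes of this abundance. The median log2 fold change of the 10 factors was -0.01, against 0.00 for all genes tested, and the median absolute change of the genes that passed was 0.29.

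**Figure D1:**
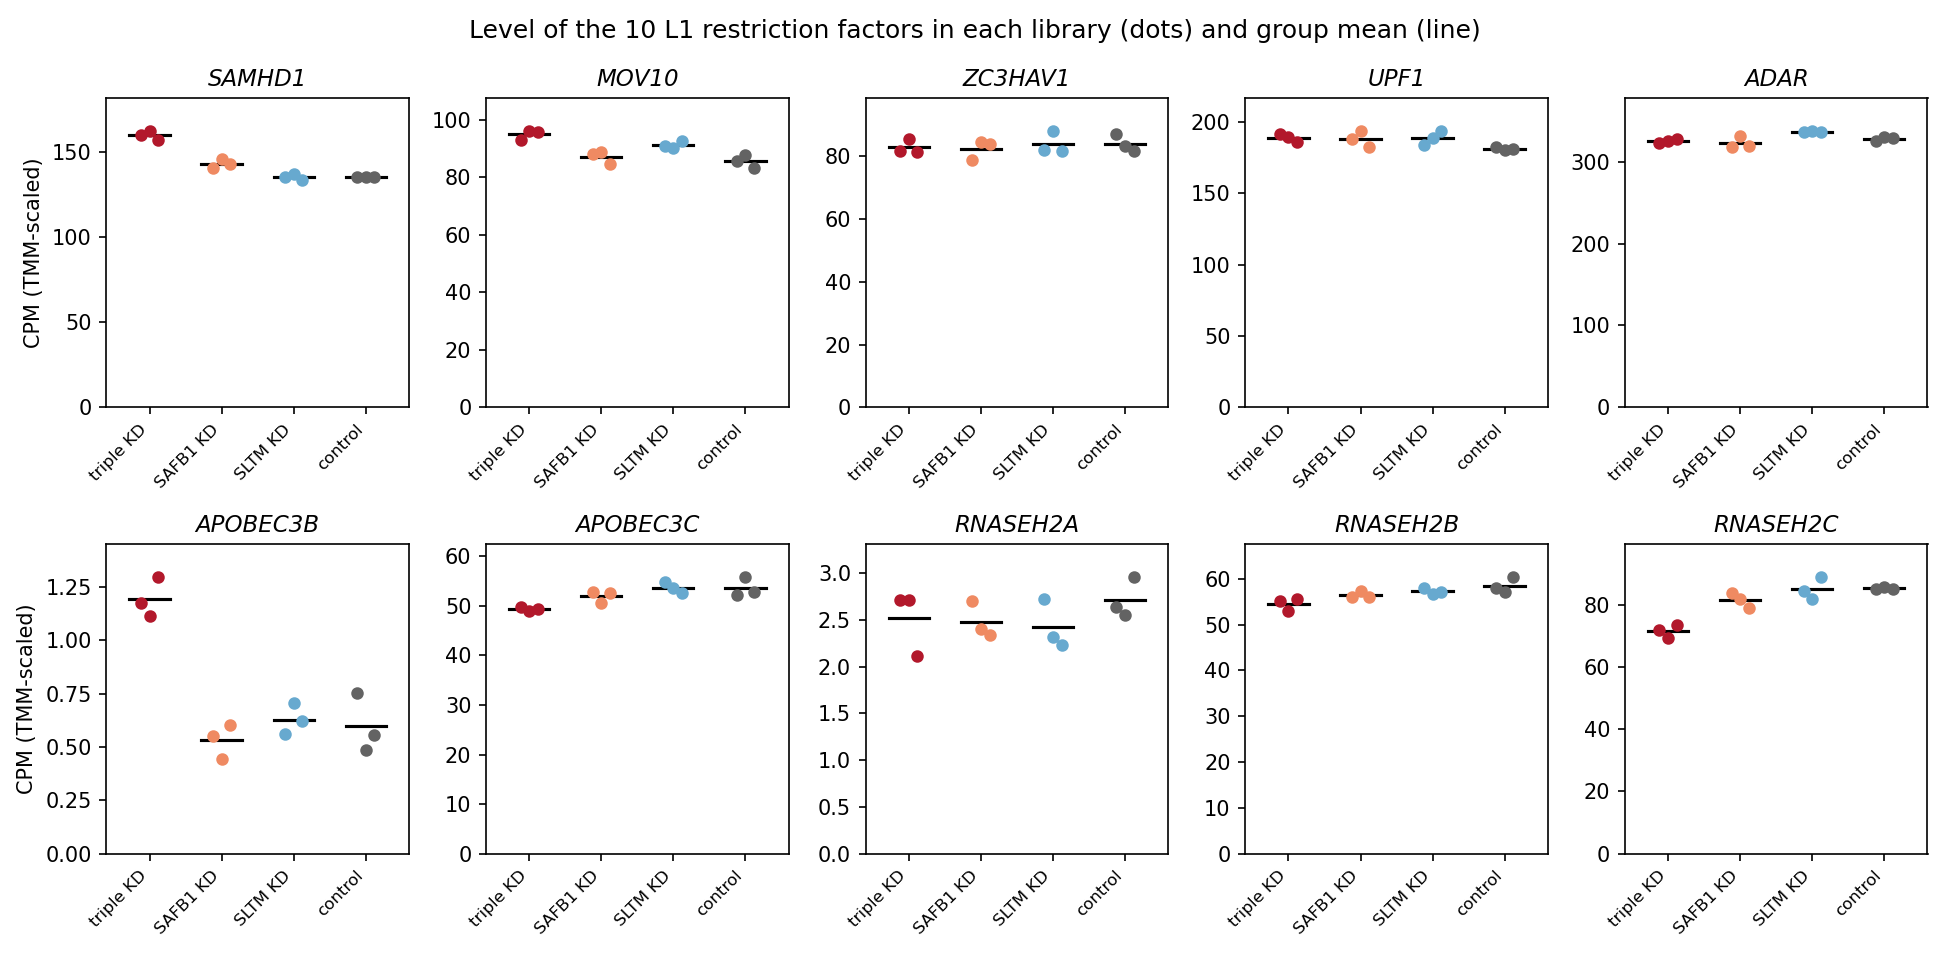
Level of each factor in the 12 libraries, as CPM from 0 on a separate axis for each gene, with a dot for each library and a line at the group mean (n = 3 libraries a group). SAMHD1, MOV10 and APOBEC3B lie highest and RNASEH2C, RNASEH2B and APOBEC3C lowest in the 3 triple KD libraries, by narrow margins for MOV10, RNASEH2B and APOBEC3C. ZC3HAV1 and RNASEH2A overlap in all groups.

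The sequences before the RefSeq starts of 2 factors are shown, *SAMHD1* and *RNASEH2C*, with the smallest adjusted p among those that rose and fell. Whether these sequences regulate the changed mRNAs was not tested. They are the 250 bases before the RefSeq start on GRCh38.p14, written in the direction of transcription, and lie at chr20:36951709-36951958 and chr11:65720799-65721048, both on the minus strand. In GENCODE v44 the genes begin at 36951893 and 65720818, inside these windows. Most of the *SAMHD1* window and the end of the *RNASEH2C* window therefore lie within the annotated gene. Capitals mark matches, on either strand, to CCAAT (the CCAAT box), GGGCGG (the GC box), TATAAA (the TATA box), GAAANNGAA (the core of the interferon-stimulated response element) and GCGCNTGCG (the core of the NRF1 site), and no matches overlap in these windows.
SAMHD1: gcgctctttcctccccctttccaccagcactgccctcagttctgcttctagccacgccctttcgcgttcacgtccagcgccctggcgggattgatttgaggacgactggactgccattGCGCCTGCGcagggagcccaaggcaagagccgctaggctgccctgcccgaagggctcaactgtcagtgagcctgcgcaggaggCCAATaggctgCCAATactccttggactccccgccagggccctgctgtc
RNASEH2C: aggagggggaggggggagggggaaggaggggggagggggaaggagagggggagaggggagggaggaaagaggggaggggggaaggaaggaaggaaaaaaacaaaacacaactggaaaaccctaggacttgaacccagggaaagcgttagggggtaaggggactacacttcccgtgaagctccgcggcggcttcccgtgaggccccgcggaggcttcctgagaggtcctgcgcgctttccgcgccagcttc
The *SAMHD1* window held CCAAT at 2 places and the NRF1 core once, all in its part within the annotated gene. The *RNASEH2C* window, whose distal part is a run of purines, held none of the 5 words. Over 35116 promoter windows of the same length, 32% held the CCAAT box, 42.6% the GC box, 10.7% the TATA box, 6.88% the interferon-type core and 6.54% the NRF1 core. Entries were found for 8 of the 10 factors, all but *APOBEC3B* and *APOBEC3C*, and the interferon-type word was in 1 of their 13 windows, at an alternative start of *MOV10*.

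*SAMHD1* (ENSG00000101347.9, chromosome 20, 36890229 to 36951893 on the minus strand of GRCh38) encodes the deoxynucleotide triphosphohydrolase, known in humans as a gene of Aicardi-Goutieres syndrome. It was measured at 160, 162 and 157 CPM in triple KD libraries, at 140, 145 and 143 CPM in SAFB1 KD libraries, at 135, 137 and 133 CPM in SLTM KD libraries and at 135, 135 and 135 CPM in control libraries. The triple KD libraries were above every other library, the SAFB1 KD libraries came next, and those of SLTM KD lay around the control. The log2 fold change was 0.24 ± 0.023 (SE) in the triple KD against the control (1.18-fold, edgeR quasi-likelihood test with Benjamini-Hochberg adjustment, adjusted p = 3.72e-14), and it kept its call in all 20 alternative fits. In the SAFB1 KD it was 0.08 ± 0.023 (adjusted p = 0.0141), the only factor called of the 10, where 9.66% of all genes were called. That call was lost without control replicate 1, 2 or 3 (adjusted p = 0.0566, 0.0924 and 0.0968), without SAFB1 KD replicate 2 (adjusted p = 0.149) and without the filter on low counts (adjusted p = 0.0549). In the SLTM KD the log2 fold change was 0.00, with a 95% interval from -0.046 to 0.045.

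*MOV10* (ENSG00000155363.18, chromosome 1, 112673141 to 112700756 on the plus strand) encodes a helicase that moves along RNA and is found with L1 RNA and ORF1 protein. It was at 93.0, 96.0 and 95.9 CPM in triple KD libraries, 88.2, 88.8 and 84.6 CPM in SAFB1 KD libraries, 90.8, 90.3 and 92.5 CPM in SLTM KD libraries and 85.5, 87.6 and 83.3 CPM in control libraries. All 3 triple KD and all 3 SLTM KD libraries were above all 3 control libraries, whereas the SAFB1 KD libraries overlapped with the control. The log2 fold change was 0.15 ± 0.026 in the triple KD (adjusted p = 1.48e-06) and 0.09 ± 0.026 in the SLTM KD (adjusted p = 0.0133), the only one of the 10 called there, where 9.26% of all genes were called. The SLTM KD call was lost without control replicate 3 (adjusted p = 0.184) and without SLTM KD replicate 3 (adjusted p = 0.0806). Set against each other, the SAFB1 KD exceeded the SLTM KD by 0.08 ± 0.023 for *SAMHD1* (adjusted p = 0.0089), and *MOV10* differed by -0.06 ± 0.027 without passing the test (adjusted p = 0.0962), although it was called in 2 of 20 alternative fits, one of them with upper-quartile scaling (-0.08, adjusted p = 0.0219). The difference in *SAMHD1* was not called without SAFB1 KD replicate 2 (adjusted p = 0.0927), without SLTM KD replicate 3 (0.0542) or under upper-quartile scaling (0.0597). The terminal uridylyltransferases TUT4 and TUT7 add tails to L1 RNA, and the germline paralogue is *MOV10L1*. Of these 3 genes *TUT4* alone passed in the triple KD, at 0.07 ± 0.025 (adjusted p = 0.0226), beside 40.3% of all genes tested. The *TUT4* call was lost without control replicate 3 (adjusted p = 0.175), without triple KD replicate 2 (adjusted p = 0.0938) and without the filter on low counts (adjusted p = 0.0826).

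*ZC3HAV1* (ENSG00000105939.12, chromosome 7, 139043515 to 139132122 on the minus strand) was at 81.7, 85.5 and 81.2 CPM in triple KD libraries and at 87.0, 83.1 and 81.7 CPM in control libraries. The groups overlapped, and the log2 fold change of -0.02 had a 95% interval from -0.077 to 0.041 (adjusted p = 0.693). Among 5 relatives and cofactors of ZAP, 4 could be tested in the triple KD, of which 2 rose and 1 fell, beside 19.4% higher and 20.9% lower of all genes tested. *KHNYN*, the endonuclease cofactor of ZAP, averaged 70.5 ± 0.926 CPM in the triple KD and 54.2 ± 0.597 CPM in the control (SD, n = 3 each), a log2 fold change of 0.38 ± 0.029 (adjusted p = 8.54e-18). *TRIM25*, the ubiquitin ligase that ZAP needs for its antiviral activity, fell by 0.16 on the log2 scale (adjusted p = 6.46e-08), and *TIPARP*, a paralogous poly(ADP-ribose) polymerase, rose by 0.12 (adjusted p = 0.00115). *ZC3HAV1L* had 0 counts in every library and was not tested, and whether reads of it were left out of the counting was not tested either.

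*UPF1* (ENSG00000005007.12, chromosome 19, 18831959 to 18868230 on the plus strand) was at 191, 189 and 186 CPM in triple KD libraries, 188, 193 and 183 CPM in SAFB1 KD libraries, 184, 189 and 193 CPM in SLTM KD libraries and 182, 180 and 181 CPM in control libraries. All 9 knockdown libraries were above the highest control library (182.38 CPM), but SAFB1 KD replicate 3 only narrowly (182.52 CPM). How many of all genes separate in this way was not counted. The log2 fold changes were 0.06 ± 0.022 in the triple KD (adjusted p = 0.0322), 0.05 ± 0.022 in the SAFB1 KD (adjusted p = 0.133) and 0.06 ± 0.023 in the SLTM KD (adjusted p = 0.0961). The call in the triple KD was lost without control replicate 2 (adjusted p = 0.106) or 3 (0.0817), without triple KD replicate 1 (0.169) or 2 (0.0599), and without the filter on low counts (0.103). In each of the single knockdowns *UPF1* was called higher in 2 of 20 alternative fits, with adjusted p between 0.0434 and 0.605 in the SAFB1 KD and between 0.0155 and 0.454 in the SLTM KD.
Of the 9 partners of UPF1 in nonsense-mediated decay, 2 rose and 4 fell in the triple KD, beside 19.4% higher and 20.9% lower of all genes tested. Their median log2 fold change was -0.03. *SMG9*, a regulator of the SMG1 kinase that phosphorylates UPF1, averaged 116 ± 0.794 CPM in the triple KD and 80.9 ± 1.76 CPM in the control (SD, n = 3 each), with a log2 fold change of 0.51 ± 0.026 (adjusted p = 3.66e-26). Its binding partner in the same complex, *SMG8*, moved the other way, to 43.1 ± 0.676 CPM in the triple KD against 51.4 ± 2.24 CPM in the control (SD, n = 3 each; log2 fold change -0.26 ± 0.032, adjusted p = 4.7e-10). *SMG5*, an adaptor for the dephosphorylation of UPF1, rose by 0.09 on the log2 scale (adjusted p = 0.000265).

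*ADAR* (ENSG00000160710.16, chromosome 1, 154581695 to 154628013 on the minus strand) was the most abundant of the 10. It was at 323, 326 and 327 CPM in triple KD libraries, 318, 331 and 319 CPM in SAFB1 KD libraries, 336, 337 and 337 CPM in SLTM KD libraries and 325, 330 and 329 CPM in control libraries. The SLTM KD libraries were above all others, and the other groups overlapped. Against the control, the log2 fold change was -0.01 in the triple KD (95% interval from -0.051 to 0.028), -0.02 in the SAFB1 KD (from -0.063 to 0.015) and 0.04 in the SLTM KD (from -0.001 to 0.077), none of which passed the test. Set directly against the SLTM KD, *ADAR* was lower in the triple KD (-0.05 ± 0.020, adjusted p = 0.0402) and lower in the SAFB1 KD (-0.06 ± 0.020, adjusted p = 0.0197). The first of these calls was lost in 15 of 20 alternative fits (adjusted p between 0.0117 and 0.174). The second was lost without SAFB1 KD replicate 1 (0.0806) or 3 (0.0855) and without SLTM KD replicate 1 (0.0521). Among 4 relatives, *ADARB1*, the other active adenosine deaminase, averaged 48.5 ± 0.411 CPM in the triple KD and 55.8 ± 0.843 CPM in the control (SD, n = 3 each), a log2 fold change of -0.20 ± 0.029 (adjusted p = 2.9e-08). *ADARB2*, a relative without known deaminase activity, was counted 1 time in all triple KD libraries together and 7 times in control libraries, a ratio of 0.160 with an exact 95% Poisson interval from 0.00355 to 1.25 that covers counting error only, and it did not pass (adjusted p = 0.152). Against the SAFB1 KD, in which it was counted 10 times, the ratio was 0.0996 (interval from 0.0023 to 0.700) and *ADARB2* was called lower by edgeR (adjusted p = 0.0472), as was *ADARB1* (-0.15 ± 0.030, adjusted p = 4e-05). *ADAD1* and *ADAD2* were too low to test.

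*APOBEC3B* (ENSG00000179750.15, chromosome 22, 38982347 to 38992804 on the plus strand) had the largest fold change and the lowest level of the 10. It was counted 67, 77 and 82 times in triple KD libraries, 36, 30 and 34 times in SAFB1 KD libraries, 35, 42 and 36 times in SLTM KD libraries and 47, 36 and 42 times in control libraries. In CPM, the triple KD libraries were at 1.17, 1.11 and 1.29, against 0.750, 0.483 and 0.556 in control libraries. All 3 triple KD libraries were above the 9 others, which overlapped. The log2 fold change was 1.01 ± 0.19 against the control (2.02-fold, 95% interval from 0.64 to 1.38 on the log2 scale, adjusted p = 5.55e-06), 1.17 ± 0.19 against the SAFB1 KD (adjusted p = 1.05e-06) and 0.92 ± 0.19 against the SLTM KD (adjusted p = 4.95e-05). It kept its call against the control in all 20 alternative fits, between 0.88 and 1.19. The APOBEC3 genes are a tandem array of related copies, of which only uniquely aligned reads were counted, so the share of reads lost to the copies is not known.

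*APOBEC3C* (ENSG00000244509.3, chromosome 22, 39014257 to 39020352 on the plus strand), a single-domain deaminase of the same array, was at 49.9, 49.0 and 49.4 CPM in triple KD libraries and at 52.1, 55.8 and 52.8 CPM in control libraries. The groups did not overlap, and the log2 fold change was -0.12 ± 0.031 (adjusted p = 0.00117), so the neighbouring paralogues *APOBEC3B* and *APOBEC3C* changed in opposite directions. It was -0.04 in the SAFB1 KD and 0.00 in the SLTM KD, neither of which passed. Of 7 further genes of the APOBEC and AID family, 4 could be tested and none passed in the triple KD by edgeR at an adjusted p under 0.05 (1 had an unadjusted p under 0.05), beside 40.3% of all genes tested. DESeq2 called 0 of them, limma-voom called 1, and edgeR without triple KD replicate 2 called 1. *APOBEC3F*, named here because it was the one relative above 1 CPM, averaged 5.74 ± 0.168 CPM in the triple KD and 5.21 ± 0.340 CPM in the control (SD, n = 3 each; adjusted p = 0.159).

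**Figure D2:**
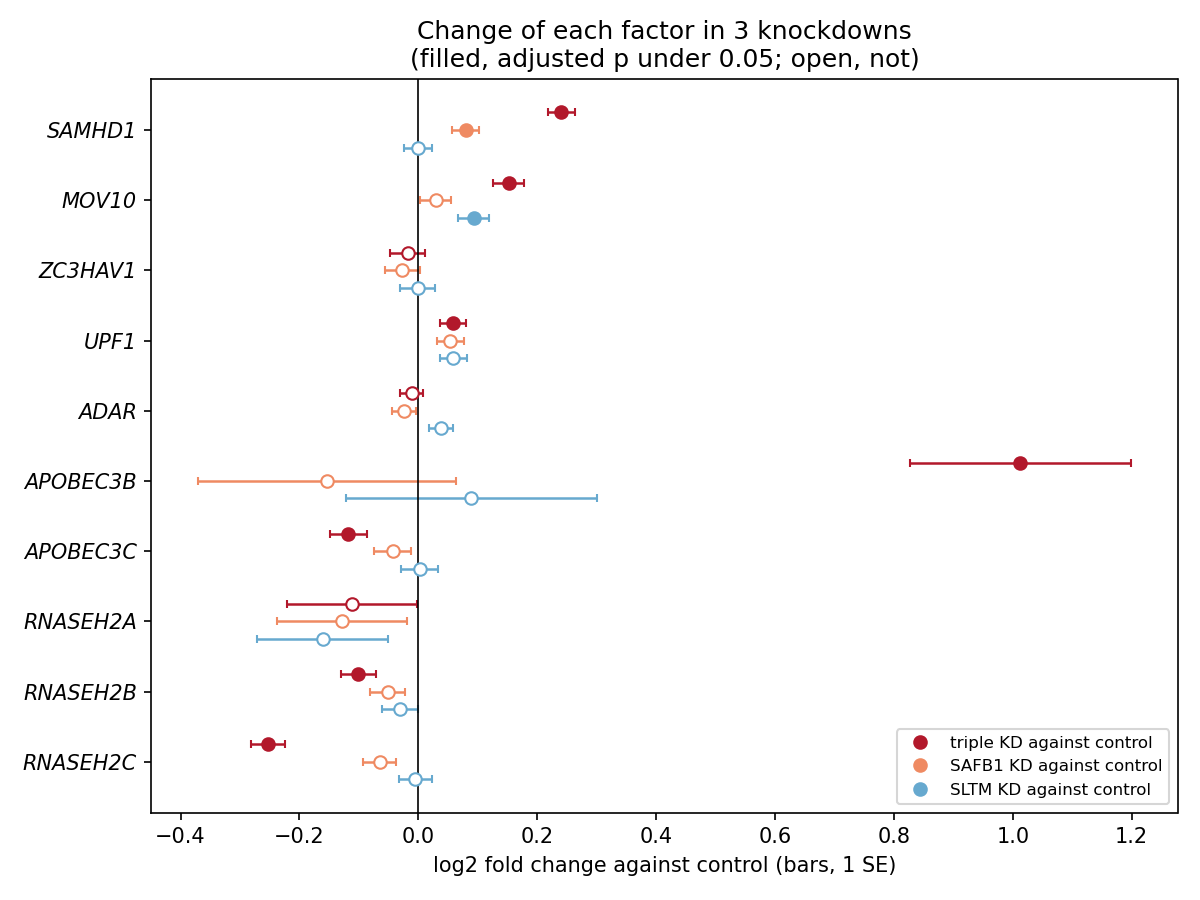
Log2 fold change of each factor against the control in the triple KD, SAFB1 KD and SLTM KD, with bars of 1 SE from edgeR. Filled points passed an adjusted p of 0.05: 7 in the triple KD, SAMHD1 in the SAFB1 KD and MOV10 in the SLTM KD.

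The RNase H2 complex needs all 3 of its subunits, the catalytic A subunit and the B and C subunits that hold it. *RNASEH2C* (ENSG00000172922.9, chromosome 11, 65714005 to 65720818 on the minus strand) was at 71.9, 69.5 and 73.7 CPM in triple KD libraries, 83.9, 81.8 and 79.1 CPM in SAFB1 KD libraries, 84.4, 82.1 and 88.9 CPM in SLTM KD libraries and 85.3, 85.8 and 85.2 CPM in control libraries. The triple KD libraries were below all 9 others. The log2 fold change was -0.25 ± 0.028 against the control (0.839-fold, adjusted p = 1.66e-11), and the call was kept in all 20 alternative fits. It was -0.07 ± 0.028 in the SAFB1 KD (adjusted p = 0.147) and -0.01 ± 0.028 in the SLTM KD (adjusted p = 0.957).

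*RNASEH2B* (ENSG00000136104.20, chromosome 13, 50909747 to 51024120 on the plus strand) was at 55.0, 53.1 and 55.6 CPM in triple KD libraries and at 58.1, 57.1 and 60.3 CPM in control libraries, without overlap. The log2 fold change was -0.10 ± 0.029 (adjusted p = 0.00374), a call that was lost without control replicate 3 (adjusted p = 0.0528), without triple KD replicate 2 (0.0647) and under upper-quartile scaling (0.0599). For *RNASEH2B* it was -0.05 in the SAFB1 KD and -0.03 in the SLTM KD, neither of which passed. *RNASEH2A* (ENSG00000104889.6, chromosome 19, 12806584 to 12813640 on the plus strand) was counted 155, 188 and 134 times in triple KD libraries and 165, 190 and 223 times in control libraries. In CPM it was at 2.71, 2.71 and 2.11 in triple KD libraries and at 2.63, 2.55 and 2.95 in control libraries. The groups overlapped, and the log2 fold change of -0.11 had a wide 95% interval, from -0.33 to 0.11. In the GENCODE v44 annotation, *THSD8*, on the same strand and counted at most 5 times in a library, shares 1095 of the 2056 exonic bases of *RNASEH2A*. The counting leaves out reads that fall on more than one gene, and what part of the *RNASEH2A* reads was lost in this way was not tested. Per kilobase of the canonical transcript, the ratio of *RNASEH2C* to *RNASEH2B* was 0.747, 0.750 and 0.759 in triple KD libraries and 0.840, 0.859 and 0.809 in control libraries, without overlap.

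Several factors lie across other genes. *RNASEH2C* converges with *KAT5*, which encodes the TIP60 acetyltransferase, and the genes share 1439 exonic bases on opposite strands. *KAT5* was at 46.7, 48.0 and 49.1 CPM in triple KD libraries, 34.3, 35.8 and 37.5 CPM in SAFB1 KD libraries, 34.2, 34.2 and 37.6 CPM in SLTM KD libraries and 33.0, 32.3 and 32.7 CPM in control libraries. *KAT5* rose in the triple KD, where *RNASEH2C* fell, with a log2 fold change of 0.55 ± 0.036 (1.47-fold, adjusted p = 7.6e-21). In the single knockdowns, where *RNASEH2C* was not called, that of *KAT5* was 0.13 ± 0.037 in the SAFB1 KD (adjusted p = 0.0106) and 0.11 ± 0.037 in the SLTM KD (adjusted p = 0.0423). The SAFB1 KD call of *KAT5* was lost without control replicate 2 (adjusted p = 0.0908) or 3 (0.0592) and without SAFB1 KD replicate 3 (0.113), and its SLTM KD call was lost in 11 of 20 alternative fits, with adjusted p between 0.0106 and 0.427 over all 20. The summed level of the pair was 119, 118 and 123 CPM in triple KD libraries and 118, 118 and 118 CPM in control libraries. The libraries and the counting were strand-specific, and whether reads of the shared stretch moved between the genes was not tested.

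**Figure D3:**
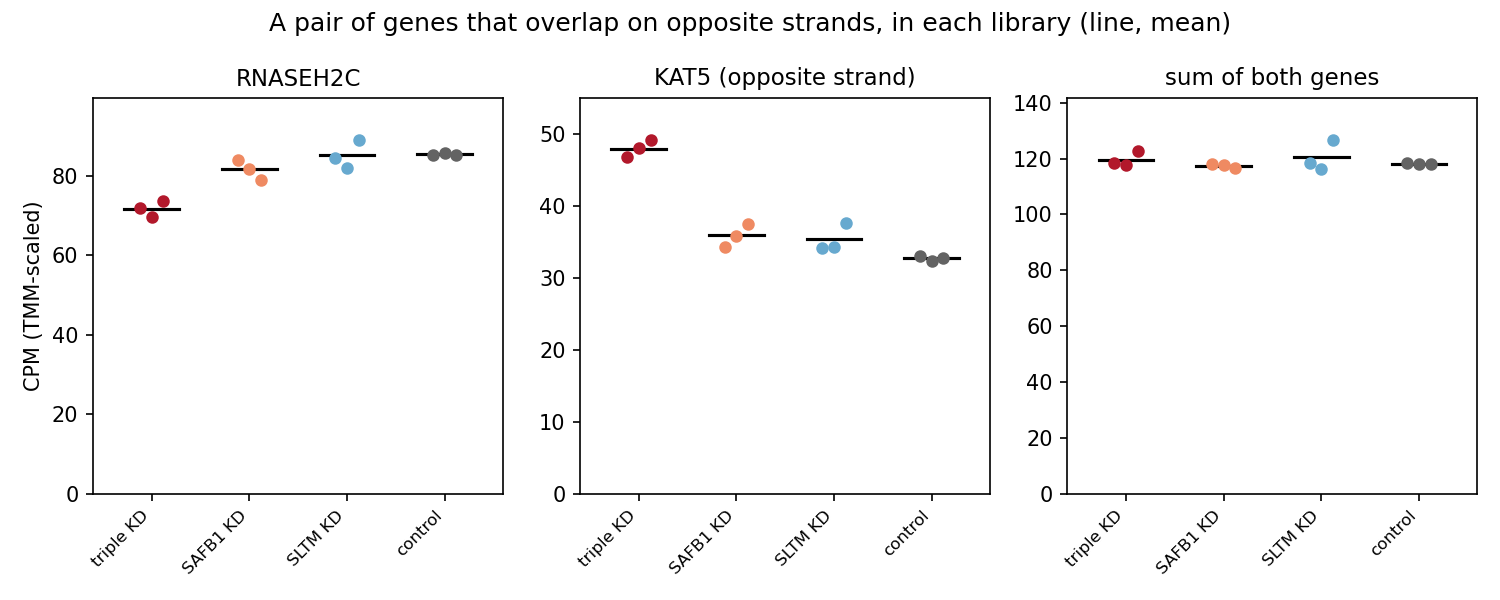
RNASEH2C, KAT5 and their sum in each library, in CPM from 0, with a dot for each library and a line at the group mean (n = 3). RNASEH2C is lowest and KAT5 highest in the triple KD, whereas the summed level lies between 116 and 127 CPM in all 12 libraries.

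*GUCY1B2*, a pseudogene of a guanylate cyclase subunit that runs against the 3′ part of *RNASEH2B*, was at 0.403, 0.346 and 0.300 CPM in triple KD libraries and 1.45, 1.36 and 1.60 CPM in control libraries. The fall of 2.07 ± 0.19 on the log2 scale (adjusted p = 1.98e-14) was accompanied by one of 0.79 ± 0.16 in the SAFB1 KD (adjusted p = 0.000288), without a change that passed in the SLTM KD (adjusted p = 0.951). *TLDC2*, opposite the 3′ end of *SAMHD1*, was counted 12, 12 and 16 times in triple KD libraries and 4, 3 and 10 times in control libraries (adjusted p = 0.0185), a call lost without control replicate 1 (0.0582) or 2 (0.117) and without triple KD replicate 3 (0.0802). *HOOK2*, whose span in v44 covers *RNASEH2A* on the opposite strand without shared exonic bases, fell by 0.16 ± 0.048 on the log2 scale (adjusted p = 0.00459).

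Per kilobase of canonical transcript, the order of the factors was similar in all groups. The counts took in all exons of a gene, whereas the length is that of 1 transcript. For *RNASEH2B* this is 1513 bases, against 26222 exonic bases over 46 transcripts. Its place, and the level of its ratio with *RNASEH2C*, depend on this choice, and other lengths were not tested. The place of *RNASEH2A* rests on counts that may lack reads shared with *THSD8*. *ADAR* led with 49.2 ± 0.312 CPM per kb in the triple KD and 49.6 ± 0.417 CPM per kb in the control (SD, n = 3 each). In the triple KD it was followed by *RNASEH2B* at 36.1 ± 0.884, *UPF1* at 35.4 ± 0.531 and *SAMHD1* at 34.3 ± 0.542 CPM per kb, neighbours that lie within or close to their spreads. *MOV10* at 28.1 ± 0.511 and *RNASEH2C* at 27.1 ± 0.795 CPM per kb came next and overlapped within their spreads. In the control the same stretch of the order ran *RNASEH2B* 38.7 ± 1.08, *UPF1* 34.0 ± 0.221, *RNASEH2C* 32.3 ± 0.114, *SAMHD1* 29.1 ± 0.0259 and *MOV10* 25.3 ± 0.644 CPM per kb, each apart from the next. *RNASEH2C* therefore stood above *SAMHD1* and *MOV10* in the control and below *SAMHD1* and level with *MOV10* in the triple KD. At the low end *APOBEC3C*, *ZC3HAV1*, *RNASEH2A* and *APOBEC3B* kept their places in all 4 groups, with *APOBEC3B* at 0.750 ± 0.0584 CPM per kb in the triple KD and 0.375 ± 0.0867 CPM per kb in the control.

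Against the SAFB1 KD, 4 factors were called in the triple KD, where 34.9% of all genes were called: *APOBEC3B*, *SAMHD1* (0.16 ± 0.023, adjusted p = 2e-08) and *MOV10* (0.12 ± 0.026, adjusted p = 0.000101) were higher, and *RNASEH2C* (-0.19 ± 0.029, adjusted p = 1.46e-07) was lower. Against the SLTM KD, 5 factors were called, beside 36.3% of all genes. *APOBEC3B* and *SAMHD1* (0.24 ± 0.023, adjusted p = 6.73e-14) were higher, and *RNASEH2C* (-0.25 ± 0.029, adjusted p = 6.24e-11), *APOBEC3C* (-0.12 ± 0.031, adjusted p = 0.00133) and *ADAR* were lower. *MOV10* did not pass against the SLTM KD in the fit reported (0.06 ± 0.026, adjusted p = 0.074) but was called higher in 8 of 20 alternative fits, those with RLE (relative log expression) scaling, upper-quartile scaling and DESeq2 among them, with adjusted p between 0.0218 and 0.186 over all 20. Between the SAFB1 KD and the SLTM KD, *SAMHD1* and *ADAR*, described above, were the 2 factors called, beside 16.0% of all genes. These comparisons share libraries with those against the control.

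The log2 fold change of the triple KD was also set against the sum of those of the SAFB1 KD and the SLTM KD. A departure from this sum includes the depletion of SAFB2, which the single knockdowns lack. Of the 10 factors, 3 departed from the sum, beside 21.4% of all genes. *SAMHD1* exceeded it by 0.16 ± 0.032 (adjusted p = 6.78e-05) and *APOBEC3B* by 1.08 ± 0.29 (adjusted p = 0.0034), and *RNASEH2C* lay below it (-0.18 ± 0.040, adjusted p = 0.000292). *MOV10* did not depart beyond its error (0.03, 95% interval from -0.045 to 0.104), its sum being made up mostly by the SLTM KD. *KAT5* departed by 0.31 ± 0.052 (adjusted p = 2.95e-06), opposite in sign to *RNASEH2C*.

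Among 12 other genes reported to restrict L1, 4 rose and 2 fell in the triple KD, with a median log2 fold change of 0.05. Beside them, 19.4% of all genes tested were higher and 20.9% lower. *ZCCHC3*, a zinc-finger protein that binds nucleic acid and acts with cGAS and RIG-I, averaged 107 ± 2.59 CPM in the triple KD, 60.7 ± 0.162 CPM in the SAFB1 KD, 59.0 ± 0.632 CPM in the SLTM KD and 56.1 ± 1.25 CPM in the control (SD, n = 3 each). Its log2 fold change in the triple KD was 0.93 ± 0.027 (adjusted p = 3.54e-38). *HNRNPL*, an RNA-binding splicing regulator, fell by 0.25 ± 0.019 on the log2 scale (adjusted p = 1.56e-17), and *DHX9*, an RNA helicase, rose by 0.18 ± 0.019 (adjusted p = 1.14e-12).

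Nucleic acids left by L1 can also be degraded or sensed in the cytoplasm. Of 10 genes of clearance and sensing, 9 could be tested, of which 1 rose and 3 fell in the triple KD, beside 19.4% higher and 20.9% lower of all genes tested. *MAVS*, the mitochondrial adaptor of the RNA sensors, averaged 149 ± 3.11 CPM in the triple KD and 182 ± 3.33 CPM in the control (SD, n = 3 each; log2 fold change -0.29 ± 0.022, adjusted p = 1.52e-17). *STING1*, the adaptor of the DNA sensor cGAS, fell by 0.16 ± 0.039 on the log2 scale (adjusted p = 0.000441), and *LSM11*, a component of the histone pre-mRNA processing complex, rose by 0.22 ± 0.033 (adjusted p = 1.16e-07). *TREX1*, the cytoplasmic DNA exonuclease, was listed at 0 in every library and was not tested. In GENCODE v44 it lies within the span of *ATRIP* on the same strand, and reads that fall on more than one gene are not counted, so the 0 does not show that *TREX1* was not expressed.

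Several of the factors are themselves induced by interferon, so a list of interferon-stimulated genes was read beside them. Of 16, 15 could be tested, of which 4 rose and 4 fell in the triple KD, with a median log2 fold change of 0.09. Beside them, 19.4% of all genes tested were higher and 20.9% lower. *OAS3*, an oligoadenylate synthetase, averaged 28.4 ± 0.356 CPM in the triple KD and 19.3 ± 0.750 CPM in the control (SD, n = 3 each; log2 fold change 0.56 ± 0.042, adjusted p = 8.44e-18). *STAT2*, a subunit of the interferon-activated transcription factor, fell to 22.5 ± 0.627 CPM in the triple KD, against 30.7 ± 0.249 CPM in the control (SD, n = 3 each; adjusted p = 2.09e-15). *IFIT1*, an interferon-induced RNA-binding protein, fell to 3.38 ± 0.233 CPM in the triple KD, against 5.16 ± 0.386 CPM in the control (SD, n = 3 each; adjusted p = 1.22e-08). The list as a whole did not move in one direction.

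**Figure D4:**
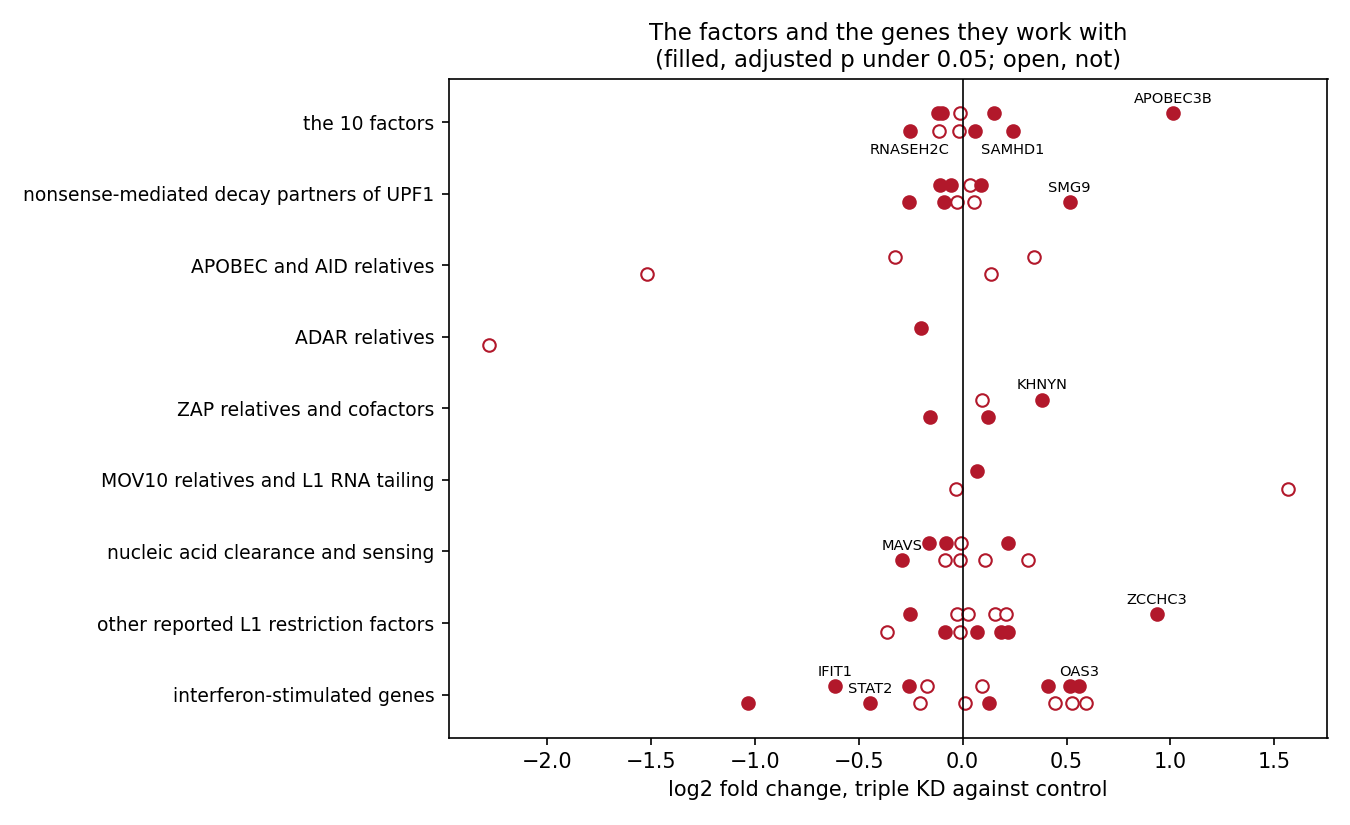
Log2 fold change in the triple KD against the control of the 10 factors and of each tested gene in 8 lists of related genes, with 1 point for each gene, filled where the adjusted p is under 0.05. ZCCHC3 at 0.93 and APOBEC3B at 1.01 lie farthest to the right of the filled points.

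The genes whose levels over the 12 libraries were most like those of a factor were sought among 13441 genes, as Pearson's r of log2 CPM. Because the libraries fall into 4 groups that share a control, r describes the pattern over groups and is given with no test. Nearest to *SAMHD1* were *EPB41L2* (0.994), *UTRN* (0.993) and *TRIO* (0.993), with log2 fold changes of 0.20, 0.33 and 0.41 in the triple KD, 0.06, 0.10 and 0.13 in the SAFB1 KD and values near 0 in the SLTM KD. Nearest to *RNASEH2C* were *AGAP3* (0.983), *TMEM179B* (0.980) and *TMEM198B* (0.980), with -0.21, -0.24 and -0.43 in the triple KD. Nearest to *MOV10* were *AP3B2* (0.978), *PTOV1-AS1* (0.968) and *CEP131* (0.956). These had 0.42, 0.84 and 0.20 in the triple KD and 0.24, 0.42 and 0.09 in the SLTM KD.

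SAFB proteins bind GAAGAA and related purine-rich words, so this word was counted on the sense strand of each gene, introns included, in GRCh38. The median of the tested protein-coding genes was 0.452 per kb. On that strand the 3 RNase H2 genes were the densest of the 10, with 0.734 per kb in *RNASEH2C* (5 copies in 6814 bases), 0.709 in *RNASEH2A* and 0.691 in *RNASEH2B* (79 copies in 114374 bases), at percentiles 91.3, 89.9 and 88.6 of those genes. On the antisense strand, where the median was 0.506 per kb, *RNASEH2B* was denser than on the sense strand, at 0.813 per kb (percentile 93.6), while *RNASEH2C* had 0.587 (percentile 65.5), *RNASEH2A* 0.283 (percentile 17.1) and *APOBEC3B* 0.956 (percentile 97.3). On the sense strand *SAMHD1* had 0.341 per kb, *MOV10* 0.398, *ZC3HAV1* 0.429, *UPF1* 0.441, *APOBEC3B* 0.287 and *APOBEC3C* 0.164, all below the median. *ADAR* had 0.497, above it. Of 2 other genes that rose in the triple KD, *ZCCHC3* had 1.09 per kb (percentile 98.1) and *KAT5* 0.394 (percentile 38.5). A match to the word is a description of the sequence and not a binding site. In RNA from whole cultures, fewer cells that express a gene and less RNA per cell cannot be told apart.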

How the data were processed

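Per the labels and the study's methods, the authors selected poly(A) RNA from HEK293 cells in 2 rounds, made strand-specific libraries, aligned reads with STAR 2.7.9a to GRCh38 and deposited raw read counts per gene of GENCODE v29, reverse-stranded, from uniquely aligned reads. Such counts leave out reads shared by near-identical or same-strand overlapping genes. Names and positions came from GENCODE v44, which matched 99.0% of identifiers, and promoter sequences from RefSeq. Genes with a summed count of at least 10 over the 12 libraries (26688) were scaled by TMM and fitted together by group with the quasi-likelihood test of edgeR 4.0.16 in R 4.3.3, called at a Benjamini-Hochberg adjusted p under 0.05 over all genes, with no minimum fold, after the code was tested on simulated data. The members and lists were chosen with earlier results of these data known. Named were all members, the siRNA targets, overlapping genes, up to 3 called genes per list with the smallest adjusted p in the triple KD, and the 3 genes most like each of the 3 members with the smallest adjusted p. CPM are counts over scaled library sizes, times 1e6. Alternatives used RLE (relative log expression) or upper-quartile scaling, other filters, DESeq2 1.42.0, limma-voom 3.58.1, only the libraries compared, a replicate block and each library left out. Libraries held 56856228 to 75533510 counts, and the common biological coefficient of variation was 2.14%.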

Additional observations from a re-analysis of the deposited data

How the results depend on the processing

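Over 20 alternative fits, 5 to 7 of the 10 factors were called in the triple KD against the control (7 in the fit reported), 4 to 5 against the SAFB1 KD (4) and 4 to 7 against the SLTM KD (5). All genes called in these comparisons ranged from 9731 to 11109, from 8294 to 9754 and from 8707 to 10085. In 19 alternatives, 3 factors departed from the sum in each, beside 5132 to 6334 of all genes. Of 1888 values of single genes, 1742 kept their direction and side of the threshold, 56 lost and 22 gained a call, and 68 changed sign. In all 68 neither fit called the gene. The causes were not tested.

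The counts of factors called in the single knockdowns rest on single calls. In the SAFB1 KD there were 0 without the filter on low counts and from 0 to 2 with a library left out. In the SLTM KD there were 2 under upper-quartile scaling and from 0 to 1 with a library left out. Between the SAFB1 KD and the SLTM KD, from 1 to 3 were called with a library left out. All genes called in the SAFB1 KD numbered 1706 without SAFB1 KD replicate 2 and 2364 without the filter, against 2577. In the SLTM KD they numbered 2698 under upper-quartile scaling, against 2471. With a library left out they ranged from 1706 to 2723 in the SAFB1 KD and from 1756 to 2628 in the SLTM KD. Between the SAFB1 KD and the SLTM KD that range was 3138 to 4284.

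With the replicate block, 2 factors were called in the SAFB1 KD and 2 in the SLTM KD, *UPF1* being the added call in both (adjusted p = 0.0434 and 0.0241). All genes called also rose with the block, from 2577 to 3416 in the SAFB1 KD and from 2471 to 3172 in the SLTM KD. The block also added calls of *APOBEC3C* in the triple KD against the SAFB1 KD (adjusted p = 0.0337), of *MOV10* (0.0382) and *RNASEH2B* (0.0383) in the triple KD against the SLTM KD, and of *MOV10* in the SAFB1 KD against the SLTM KD (0.0447). In these comparisons all genes called rose from 9308 to 9754, from 9679 to 10085 and from 4282 to 5016. Deviations from the group means correlated by -0.025 to 0.139 (mean 0.045) over 18 pairs of libraries with the same number. Over 36 pairs with different numbers they correlated by -0.111 to 0.064 (mean -0.022). Among the libraries of other groups, 11 of 12 libraries correlated best with one of their own number. The fit reported has no term for the number, and whether the number marks a shared batch was not tested.

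The sign changes, as log2 fold changes, were as follows. In the triple KD against the control, *ZC3HAV1* was at 0.015 and *ADAR* at 0.022 under upper-quartile scaling, and *ADAR* at 0.00067 under filterByExpr. In the SLTM KD against the control, *SAMHD1* was at 0.0013 under RLE scaling, 0.018 under upper-quartile scaling, 0.0038 under filterByExpr, 0.0013 in DESeq2 and 0.0011 in the libraries compared alone. *ZC3HAV1* was at 0.00055, 0.018, 0.0030, 0.00022 and 0.00028 in the same order. *RNASEH2C* was at 0.014 under upper-quartile scaling and *APOBEC3C* at -0.0088 without a filter. In the triple KD against the SLTM KD, *UPF1* was at 0.0060 under RLE scaling, 0.013 under upper-quartile scaling, 0.00015 without a filter, 0.0070 under filterByExpr, 0.0060 in DESeq2 and 0.0042 in the libraries compared alone.

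With 1 library left out, the ranges that crossed 0 were as follows. For *ZC3HAV1* they were -0.039 to 0.0085 in the triple KD and -0.043 to 0.025 in the SLTM KD against the control. They were -0.012 to 0.030 in the triple KD against the SAFB1 KD, -0.032 to 0.025 against the SLTM KD, -0.050 to 0.0070 in the SAFB1 KD against the SLTM KD and -0.013 to 0.061 in the departure. In the SLTM KD against the control, *SAMHD1* ran from -0.016 to 0.0048, *RNASEH2C* from -0.042 to 0.014, *APOBEC3B* from -0.049 to 0.27 and *APOBEC3C* from -0.016 to 0.026. *APOBEC3B* ran from -0.30 to 0.025 in the SAFB1 KD against the control. *RNASEH2A* ran from -0.036 to 0.13 in the triple KD against the SAFB1 KD, from -0.0064 to 0.16 against the SLTM KD, and from -0.038 to 0.13 in the SAFB1 KD against the SLTM KD. In the same comparisons *UPF1* ran from -0.016 to 0.027, -0.019 to 0.021 and -0.028 to 0.015, and the departure of *RNASEH2B* from -0.033 to 0.021.

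Low counts limit *APOBEC3B* (30 to 82 counts) and *RNASEH2A* (130 to 223 counts), whose levels varied within a group by up to 23.1% and 13.8% of the mean, against at most 4.26% for the other factors. Another scaling moved the median of all genes in the triple KD by at most 0.03 on the log2 scale, and under upper-quartile scaling the split of all genes called was 5963 higher and 4886 lower, against 5174 and 5591.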
